A study of Rattus norvegicus with 9 samples.

Results

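Apoptosis is the programmed death of a cell, and 9 genes of its core machinery were chosen by symbol and not by a rule on their measured values: the BCL2 family genes Bax, Bak1, Bid, Bcl2l1, Bcl2l11 and Mcl1, the caspase genes Casp8 and Casp9, and the death receptor gene Fas. Of these, 8 were rows of both deposited tables, among 15565 genes in both, and Mcl1 was not analysed here. All 8 passed the filter on low counts that left 12041 genes for testing. None of the 8 passed the test in any of 3 comparisons, and the values below are given with that limit.

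Liver RNA of male rats, whose strain is labelled SD, was sequenced in 9 libraries. The SCL-treated group (3 libraries) received SCL, which stands for Smilax china L., a climbing plant, and its tissue is labelled as fatty liver with no diet given. The high-fat diet group (3 libraries) ate that diet for 8 weeks to induce fatty liver disease. The normal diet group (3 libraries) ate a normal diet. Source names call the normal diet libraries wt and the high-fat diet libraries model, and those of the SCL-treated group carry neither word. The design text writes SCS where the sample labels write SCL, and these were taken as one group. Dose, duration of treatment and age are not stated. The labels number the libraries of a group but do not say whether they came from separate rats, so the p-values cover the variation among libraries, part of which may be technical. The title of high-fat diet replicate 1 carries the code M2 where replicates 2 and 3 carry M, and what this marks is not stated.

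An extrinsic and an intrinsic route lead to the caspases, the proteases that take a dying cell apart. In the extrinsic route a death receptor such as Fas gathers pro-caspase-8, and active caspase-8 cuts Bid, whose product moves to mitochondria. In the intrinsic route BH3-only proteins such as Bim, the product of Bcl2l11, release Bax and Bak from guards such as Bcl-xL, the product of Bcl2l1. Bax and Bak then open the outer mitochondrial membrane, and the cytochrome c that leaks out joins Apaf1 to activate caspase-9. Hepatocytes are known to need the Bid step for efficient killing through Fas, and hepatocyte apoptosis is a known feature of fatty liver disease. Much of this control acts on proteins, which RNA levels do not measure.

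Total counts were 12413774 to 15521648 reads per library. Transcripts of the mitochondrial genome took 10.97%, 49.0% and 7.04% of reads in SCL-treated replicates 1, 2 and 3. They took 4.90%, 18.8% and 44.1% in high-fat diet replicates 1, 2 and 3, and 4.63%, 3.85% and 11.2% in normal diet replicates 1, 2 and 3. SCL-treated replicate 2 and high-fat diet replicate 3 stand apart in this respect, and several results are given with and without them. All 10 hepatocyte markers were detected in every library, with summed levels of 75832 to 233290 CPM (read counts scaled to a common library size by the TMM method) in SCL-treated livers, 75277 to 151438 CPM in high-fat diet livers and 157096 to 192126 CPM in normal diet livers.

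The stretches before the annotated start of Bak1, Casp9 and Bcl2l11 are shown because these are the genes with an entry among those whose high-fat and normal diet libraries did not overlap. Each is 250 bases upstream of a RefSeq gene start in the rat build GRCr8, on the strand of the gene, and 6 of the 8 genes had an entry, Bax and Casp8 having none. Capitals mark the GC box GGGCGG, the CCAAT box CCAAT and the forkhead motif GTAAACA, each searched on both strands and none overlapping another here.
Bak1 (chr20:5110975-5111224, minus strand): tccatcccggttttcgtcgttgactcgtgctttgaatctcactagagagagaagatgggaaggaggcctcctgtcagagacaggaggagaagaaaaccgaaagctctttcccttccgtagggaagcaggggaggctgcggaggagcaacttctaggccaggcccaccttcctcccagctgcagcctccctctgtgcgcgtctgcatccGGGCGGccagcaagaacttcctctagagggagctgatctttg
Casp9 (chr5:159391824-159392073, plus strand): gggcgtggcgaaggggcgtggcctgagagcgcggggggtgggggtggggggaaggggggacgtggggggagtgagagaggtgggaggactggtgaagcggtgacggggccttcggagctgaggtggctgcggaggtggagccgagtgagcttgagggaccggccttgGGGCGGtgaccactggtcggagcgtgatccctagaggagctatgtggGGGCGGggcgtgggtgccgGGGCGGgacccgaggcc
Bcl2l11 (chr3:135819792-135820041, plus strand): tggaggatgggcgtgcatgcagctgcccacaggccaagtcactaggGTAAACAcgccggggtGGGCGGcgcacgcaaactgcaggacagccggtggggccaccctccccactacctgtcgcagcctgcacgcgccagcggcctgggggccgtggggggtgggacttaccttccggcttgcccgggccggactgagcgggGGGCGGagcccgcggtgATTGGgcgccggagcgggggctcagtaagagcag
The Bak1 window held 1 GC box, the Casp9 window 3 and the Bcl2l11 window 2. Among the genes not shown, whose high-fat and normal diet libraries overlapped, Bid held 3 GC boxes, Fas 1 and the Bcl2l1 windows none. A GC box was present in 30.5% of all 33469 windows of this length, a CCAAT box in 34.0% and the forkhead motif in 3.21%. Bcl2l11 held 1 copy each of the CCAAT box and the forkhead motif, and Bak1 and Casp9 held neither. GC content was 57.6% for Bak1, 73.2% for Casp9 and 72.0% for Bcl2l11, against a median of 51.2% over all windows. The E-box CACGTG, the cAMP response element core TGACG and the TATA box TATAAA were searched too and are not in capitals. They are held by 5.59%, 18.2% and 12.9% of all windows, and of the 3 genes shown Casp9 held 1 TGACG and there was no other match. These matches are descriptions of letters and do not show binding.

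Levels between genes were compared in FPKM, a level corrected by the authors for gene length and depth. Over the 9 libraries the means were 16.4 ± 5.6 FPKM (SD) for Bax, 10.6 ± 3.06 FPKM for Bid, 5.94 ± 1.65 FPKM for Bcl2l1 and 4.12 ± 0.485 FPKM for Fas. Bak1 followed with 2.59 ± 0.825 FPKM, Casp9 with 2.37 ± 0.602 FPKM, Casp8 with 1.90 ± 0.687 FPKM and Bcl2l11 with 1.14 ± 0.396 FPKM. Bak1 and Casp9, and Casp9 and Casp8, lay within 1 SD of each other, and the other neighbours in this order were farther apart than the SD of either. Bax ranked at the percentile 78.3 of tested genes by mean FPKM and Bcl2l11 at 20.2, so the most abundant gene was a pore former and the least abundant a BH3-only activator.

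Fas, the receptor that starts the extrinsic route, had 9.93, 11.6 and 13.2 CPM in SCL-treated replicates 1, 2 and 3, 7.79, 8.56 and 13.3 CPM in high-fat diet replicates and 9.87, 9.68 and 11.5 CPM in normal diet replicates. All 3 groups overlapped, and the highest and the lowest of the 9 levels were both high-fat diet libraries. Its log2 fold change was -0.07 (SE 0.29, edgeR adjusted p = 0.97) for high-fat over normal diet, with a 95% interval from -0.71 to 0.58.

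Casp8, the initiator caspase that Fas recruits, had 3.40, 4.85 and 3.07 CPM in SCL-treated livers, 3.14, 1.57 and 3.65 CPM in high-fat diet livers and 5.73, 4.67 and 4.26 CPM in normal diet livers. Every high-fat diet library lay below every normal diet library, and 2 of the 3 SCL-treated libraries did too. High-fat over normal diet gave a log2 fold change of -0.81 (SE 0.40, n = 3 against 3, 95% interval -1.70 to 0.08, edgeR adjusted p = 0.91), and -1.05 to -0.54 with 1 library left out. Casp8 rested on 20 to 60 reads a library on the high-fat diet and 59 to 94 reads on the normal diet. In GRCr8 the gene overlaps Cflar, a caspase-8 regulator with more reads, and with strand use of the counting unknown the count of Casp8 is uncertain.

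Bid, the caspase-8 substrate that links both routes, had 24.9, 13.3 and 23.7 CPM in SCL-treated livers, 26.7, 17.8 and 24.7 CPM in high-fat diet livers and 21.3, 16.5 and 18.3 CPM in normal diet livers. The groups overlapped, and the lowest library was SCL-treated replicate 2, in which 49.0% of the reads were mitochondrial. Bid had a log2 fold change of 0.30 (SE 0.30, 95% interval -0.36 to 0.97) for high-fat over normal diet.

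Bcl2l11, which encodes Bim, had 5.38, 11.5 and 5.79 CPM in SCL-treated livers, 5.65, 4.0 and 2.87 CPM in high-fat diet livers and 5.73, 6.45 and 5.71 CPM in normal diet livers. The high-fat diet libraries lay below the normal diet ones by a narrow margin, since high-fat diet replicate 1 had 5.65 CPM and the lowest normal diet library 5.71 CPM. With the size factors of DESeq2 as the scaling, these 2 groups overlapped. With 1 library left out the log2 fold change of high-fat over normal diet ran from -0.80 (without high-fat diet replicate 1) to -0.31 (without replicate 3). With all libraries it was -0.51 (SE 0.39, edgeR adjusted p = 0.91) for high-fat over normal diet and 0.85 (SE 0.39, 95% interval -0.02 to 1.72, edgeR adjusted p = 1.00) for SCL-treated over high-fat diet livers. Without both libraries over 40% mitochondrial this second value stood at 0.20, and with 1 library left out it ran from 0.42 (without SCL-treated replicate 2) to 1.14 (without high-fat diet replicate 1). SCL-treated replicate 2 was the highest of all 9 libraries and high-fat diet replicate 3 the lowest.

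Bax, one of the pore formers, had 28.0, 17.8 and 24.0 CPM in SCL-treated livers, 11.5, 26.4 and 35.7 CPM in high-fat diet livers and 8.96, 19.0 and 20.6 CPM in normal diet livers. Its high-fat diet libraries spread widely, from below 2 of the normal diet libraries to above all 3. For Bax this gave a log2 fold change of 0.60 (SE 0.44, 95% interval -0.37 to 1.56) for high-fat over normal diet. It was 0.93 without high-fat diet replicate 1 (edgeR across all genes, unadjusted p = 0.030, adjusted p = 0.201), 0.22 without high-fat diet replicate 3 and 0.30 without normal diet replicate 1. Bak1 had the smaller p in the fit without high-fat diet replicate 1 (edgeR, unadjusted p = 0.023, adjusted p = 0.185). Without that library the groups did not overlap at 44.3% of all tested genes.

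Bak1, the other pore former, had 5.72, 6.79 and 4.74 CPM in SCL-treated livers, 4.55, 5.03 and 10.2 CPM in high-fat diet livers and 4.20, 3.40 and 3.47 CPM in normal diet livers. Every SCL-treated and every high-fat diet library lay above every normal diet library. For Bak1 the log2 fold change was 0.83 (SE 0.38, 95% interval -0.01 to 1.67, edgeR adjusted p = 0.91) for high-fat over normal diet and 0.64 (SE 0.38, edgeR adjusted p = 0.67) for SCL-treated over normal diet livers. High-fat diet replicate 3 held the highest level, and without it the first value was 0.37, against 1.03 without high-fat diet replicate 1.

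Bcl2l1, whose main product Bcl-xL restrains Bax and Bak, had 25.6, 24.8 and 27.5 CPM in SCL-treated livers, 32.0, 20.7 and 18.4 CPM in high-fat diet livers and 18.3, 21.1 and 28.8 CPM in normal diet livers. All groups overlapped, and the SCL-treated libraries were close together, with a mean of 26.0 ± 1.35 CPM (SD, n = 3). Its log2 fold change was 0.06 (SE 0.29, 95% interval -0.57 to 0.69) for high-fat over normal diet. A separate row for its pseudogene Bcl2l1-ps1 held 0 to 3 reads a library, and reads shared with that copy cannot be assigned with certainty.

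Casp9, the initiator caspase of the intrinsic route, had 6.26, 10.4 and 10.9 CPM in SCL-treated livers, 7.01, 6.52 and 10.9 CPM in high-fat diet livers and 5.73, 5.13 and 4.63 CPM in normal diet livers. As with Bak1, all 6 SCL-treated and high-fat diet libraries lay above all 3 normal diet libraries. The log2 fold change was 0.66 (SE 0.34, 95% interval -0.09 to 1.40, edgeR adjusted p = 0.91) for high-fat over normal diet, and 0.38 to 0.78 with 1 library left out, the lowest being without high-fat diet replicate 3. It was 0.83 (SE 0.34, 95% interval 0.08 to 1.57, edgeR adjusted p = 0.66) for SCL-treated over normal diet livers, with an unadjusted p of 0.033 in edgeR's test across all genes. No other difference among the 8 genes had an unadjusted p under 0.05 in that fit. In SCL-treated replicate 2, where 49.0% of reads were mitochondrial, Casp9 stood at 10.4 CPM. Replicate 1, at 6.26 CPM, was nearest to the highest normal diet library, at 5.73 CPM. Casp9 overlaps the elastase gene Cela2a in GRCr8, which held 2 to 18 reads a library, against 64 to 134 reads for Casp9.

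**Figure D1:**
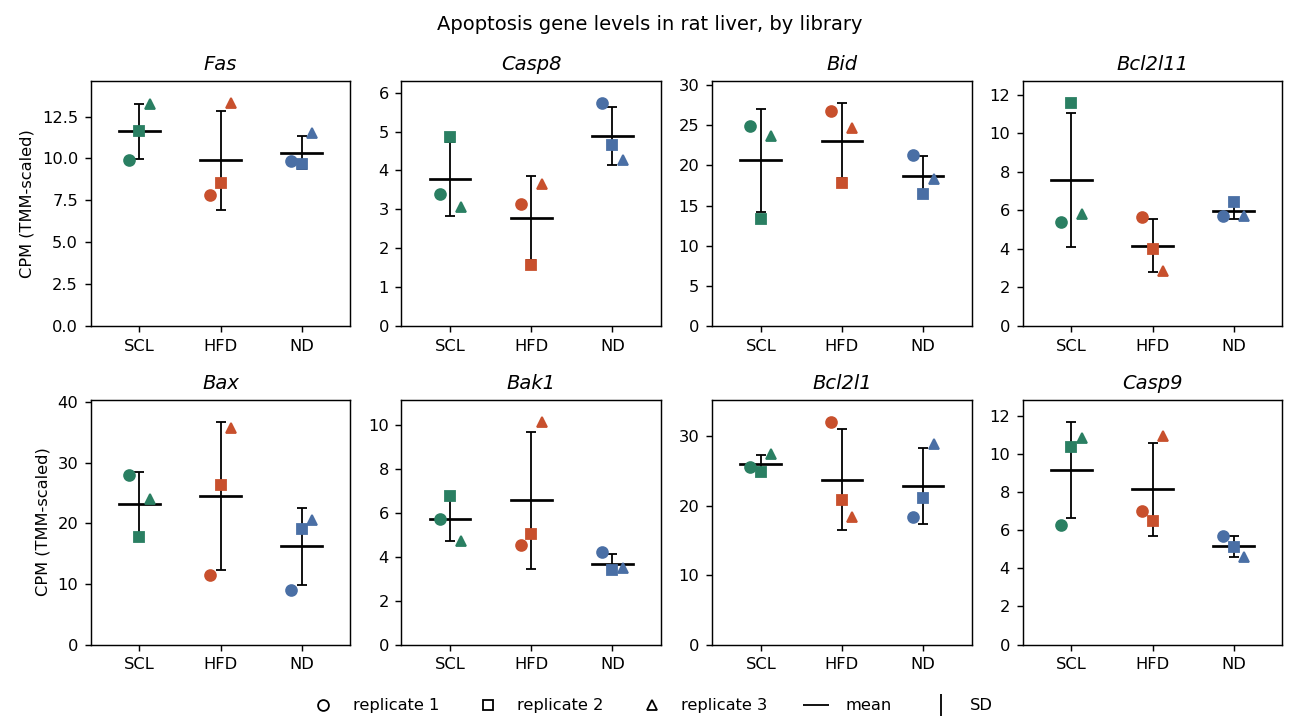
Level of each gene in CPM (TMM-scaled) in SCL-treated (SCL), high-fat diet (HFD) and normal diet (ND) livers. Symbols are libraries by replicate number, horizontal lines are means and bars are SDs (n = 3). Casp9 and Bak1 lie higher in all SCL and HFD libraries than in any ND library, while Bax spans 11.5 to 35.7 CPM within HFD.

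High-fat diet livers were set against normal diet livers to see what the diet did. Of the 8 genes, 4 had high-fat diet libraries that did not overlap the normal diet ones, Bak1 and Casp9 above and Casp8 and Bcl2l11 below. The groups did not overlap at 10.6% of all 12041 tested genes, 5.33% above and 5.27% below. The quasi-likelihood test of edgeR called 0 of the 8 genes at an adjusted p under 0.05 (0 at an unadjusted p under 0.05, where 4.32% of all genes were), and called 0.0083% of all tested genes. DESeq2 and weighted limma-voom also called 0 of the 8, beside 0.416% and 0.216% of all genes. The 8 log2 fold changes had a median of 0.18, with 5 positive and 3 negative, against a median of 0.03 over all tested genes. With the scaling kept, leaving libraries out can only keep or add genes without overlap, here and in the other comparisons. Without high-fat diet replicate 3, 5 of the 8 genes did not overlap, beside 15.6% of all genes, and Fas joined as lower. Without high-fat diet replicate 1, 5 did not overlap as well, with Bax joining as higher, but so did 44.3% of all genes. Without high-fat diet replicate 2, Bid joined as higher, beside 18.0% of all genes. With library totals as the only scaling, 2 did not overlap, Bak1 above and Casp8 below, beside 9.72% of all genes.

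The authors' deposited table gives this comparison as normal over high-fat diet, so that signs are turned. In it the log2 fold change was 0.82 for Casp8 (adjusted p = 0.77), -0.81 for Bak1 (adjusted p = 0.76) and -0.64 for Casp9 (adjusted p = 0.80), by the authors' own fit.

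SCL-treated livers were then set against high-fat diet livers. None of the 8 genes had groups that did not overlap, where 4.78% of all tested genes did (2.36% above and 2.43% below), and edgeR called 0 of the 8 and 0% of all genes (0 of the 8 at an unadjusted p under 0.05, and 1.95% of all genes). DESeq2 called 0 of the 8, beside 0.00832% of all genes, and limma-voom called 0 of the 8 and 0% of all genes. With library totals alone 0 of the 8 did not overlap (5.44% of all genes), and without both libraries over 40% mitochondrial 1 did, Fas above (28.3%). Log2 fold changes ran from -0.19 for Bak1 to 0.85 for Bcl2l11, with a median of 0.15, against -0.03 over all genes. Without high-fat diet replicate 1, Bcl2l1 and Bcl2l11 lay above in SCL-treated livers, beside 17.0% of all genes without overlap. Without SCL-treated replicate 1, Bcl2l11 alone did so (11.9% of all genes), and without high-fat diet replicate 3, Fas alone did so (9.60%).

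The third comparison set SCL-treated against normal diet livers. Bak1 and Casp9 lay above in all SCL-treated libraries, 2 of the 8 genes, where 15.3% of all tested genes had groups that did not overlap (7.47% above and 7.81% below). With library totals alone Bak1 overlapped and Casp8 lay below, so 2 genes did not overlap, beside 17.2% of all genes. EdgeR called 0 of the 8 genes and 0.0083% of all genes (1 of the 8, Casp9, at an unadjusted p under 0.05, where 6.88% of all genes were), DESeq2 0 of the 8 and 0.333%, and limma-voom 0 of the 8 and 1.26%. The median log2 fold change was 0.27, with 7 positive and 1 negative, against 0.03 over all genes. Without SCL-treated replicate 2, 5 genes did not overlap, Bax, Bak1, Bid and Casp9 above and Casp8 below, beside 30.9% of all genes. Without normal diet replicate 3, 4 genes lay above (Bak1, Bcl2l1, Casp9 and Fas), beside 41.7%. The normal diet libraries are shared with the first comparison, so these values are not independent of those above.

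**Figure D2:**
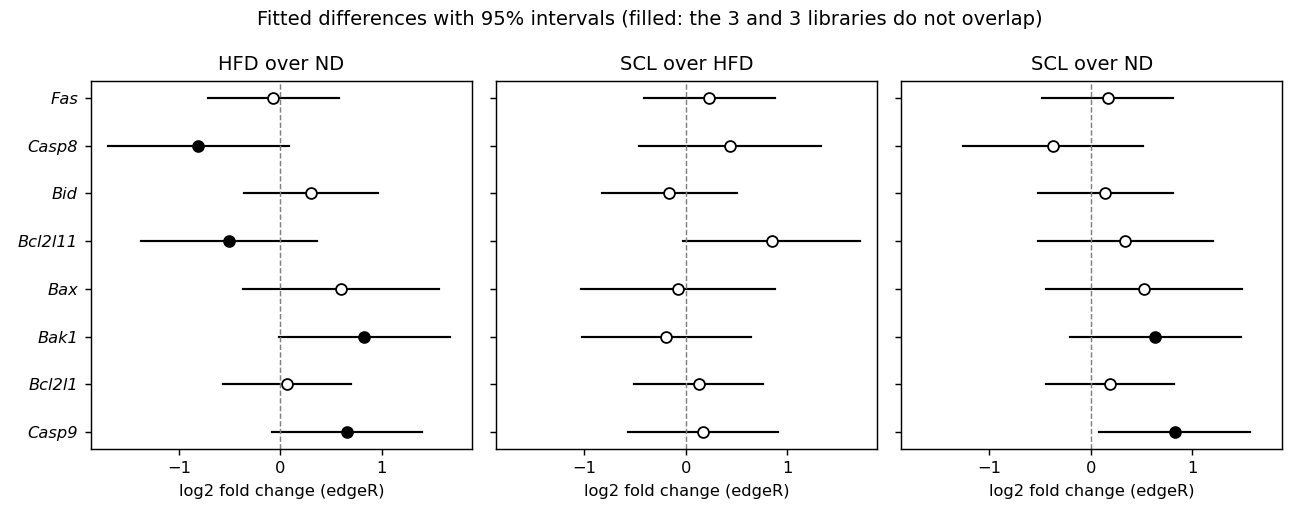
Fitted log2 fold changes (points) with 95% intervals (lines) for each gene in the 3 comparisons, with HFD over ND at the left, SCL over HFD in the middle and SCL over ND at the right. Filled points mark genes whose libraries do not overlap, and the only interval clear of 0 is that of Casp9 for SCL over ND (0.08 to 1.57).

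Ratios of reads within a library do not depend on how libraries are scaled. The ratio of Casp9 to Casp8, chosen after the values of both were seen, was 1.84, 2.14 and 3.54 in SCL-treated replicates 1, 2 and 3. It was 2.23, 4.15 and 3 in high-fat diet replicates and 1, 1.1 and 1.08 in normal diet replicates. All 6 libraries of the fatty livers lay above the 3 normal ones, which leaving out the 2 libraries over 40% mitochondrial cannot change. No test is given, since the pair was picked for its pattern, and the uncertainty of Casp8 counts beside Cflar applies to this ratio too. In FPKM, which corrects for length, Casp9 stood above Casp8 in each SCL-treated and high-fat diet library and below it in each normal diet library. The length correction changes the ratio by the same factor in every library. The FPKM values therefore restate the pattern of the reads and add no support to it. The means in FPKM were 2.66 ± 0.535 for Casp9 and 1.69 ± 0.321 for Casp8 in SCL-treated livers, 2.65 ± 0.597 and 1.42 ± 0.610 in high-fat diet livers, and 1.80 ± 0.276 and 2.61 ± 0.495 in normal diet livers (SD, n = 3 each).

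The balance of pore former to guard was less regular. The ratio of Bax to Bcl2l1 reads was 1.09, 0.715 and 0.875 in SCL-treated livers, 0.359, 1.27 and 1.94 in high-fat diet livers and 0.490, 0.899 and 0.714 in normal diet livers. The high-fat diet livers held both the lowest and the highest value, and the lowest belonged to replicate 1 and the highest to replicate 3, the library with 44.1% mitochondrial reads. The ratio of Bak1 to Bcl2l1 averaged 0.223 ± 0.0505 in SCL-treated livers, 0.312 ± 0.214 in high-fat diet livers and 0.170 ± 0.0555 in normal diet livers (SD, n = 3 each), and the groups overlapped. The ratio of Bcl2l11 to Bcl2l1 was 0.210, 0.465 and 0.211 in SCL-treated livers, 0.176, 0.193 and 0.156 in high-fat diet livers and 0.313, 0.305 and 0.198 in normal diet livers. For this last ratio every high-fat diet library was below every SCL-treated and every normal diet library, the nearest pair being 0.193 and 0.198. Bcl2l11 rested on 33 to 108 reads a library on the high-fat diet, with a counting error of 12.5%, and that gap lies within it. No test was run, and how often other pairs of genes separate in this way was not counted.

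**Figure D3:**
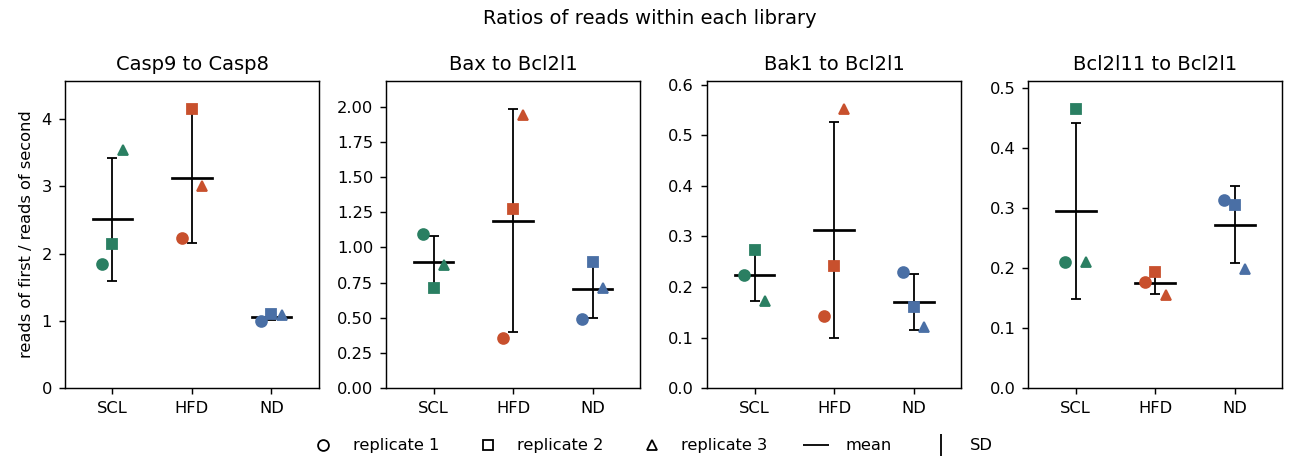
Ratio of the reads of one gene to those of another within each library, in SCL-treated (SCL), high-fat diet (HFD) and normal diet (ND) livers, with means (horizontal lines) and SDs (bars, n = 3). Casp9 to Casp8 is 1 to 1.1 in ND and 1.84 or more elsewhere, while Bax to Bcl2l1 spans 0.359 to 1.94 within HFD.

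High-fat diet replicate 3 held the highest level of 4 of the 8 genes (Bax, Bak1, Casp9 and Fas) and the lowest of 1 (Bcl2l11). The share of all tested genes at their highest or lowest in that library was not counted. No trait of the 8 genes can therefore be read from these numbers. With the log2 mitochondrial share as a covariate, the log2 fold change of high-fat over normal diet was 0.20 for Bax, 0.42 for Bak1, 0.50 for Casp9, -0.93 for Casp8 and -0.53 for Bcl2l11. Without the covariate these values were 0.60, 0.83, 0.66, -0.81 and -0.51 for the same genes. The value for Bid was 0.52 with the covariate and 0.30 without it. For Bcl2l1 it was 0.16 with and 0.06 without, and for Fas -0.26 with and -0.07 without. Of the 8 genes only Bax had an estimated spread above the median of all tested genes. The biological coefficient of variation estimated by edgeR ran from 0.282 for Bcl2l1 to 0.392 for Bax, against a median of 0.368 over all tested genes. In SCL-treated livers the CV of Bcl2l1 was 5.21%, about its counting error of 5.63%, whereas in high-fat diet livers Bax had a CV of 49.8% against a counting error of 5.57%.

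**Figure D4:**
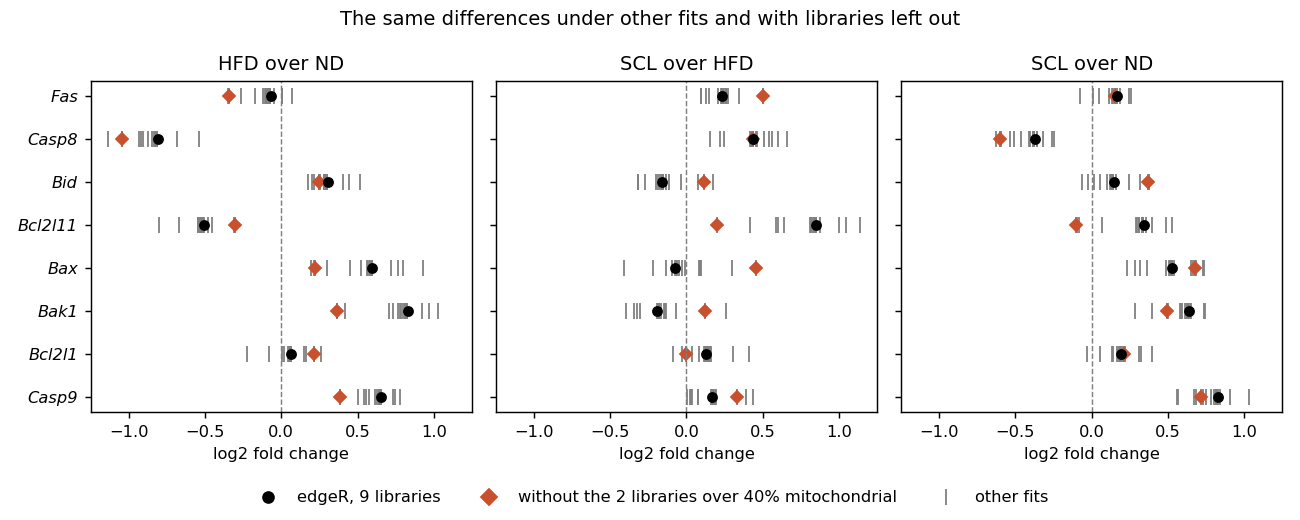
Log2 fold change of each gene in the 3 comparisons with all 9 libraries in edgeR (black circles), without the 2 libraries over 40% mitochondrial (red diamonds) and under the other fits (grey ticks). For HFD over ND, Casp8 and Bcl2l11 stay below 0 and Bax, Bak1, Bid and Casp9 above 0 in every fit shown. Bak1 in that comparison moves to 0.37 without those 2 libraries, against 0.83 with them.

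The rest of the pathway was read from a list of 57 further genes, of which 52 were in both tables and 49 were tested. None was called by edgeR in any comparison. For high-fat over normal diet 22 log2 fold changes were positive and 27 negative, with a median of -0.08 against 0.03 over all tested genes, and 3 genes had an unadjusted p under 0.05, where 4.32% of all genes did. These 3 were picked out once the values had been seen. Dffb, the nuclease that cuts DNA in apoptosis, stood at 1.02 (SE 0.37) on the log2 scale, and Faslg, the ligand of Fas, 1.93 (SE 0.81) on 10 to 21 reads a library on the high-fat diet and 3 to 5 on the normal diet. Tnfsf10, which encodes the death ligand TRAIL, stood at -0.76 (SE 0.31). For SCL-treated over high-fat diet the list's median was 0.08, and for SCL-treated over normal diet -0.04. In the first of these 1 gene had an unadjusted p under 0.05, where 1.95% of all genes did. It was Xiap, an inhibitor of caspases, with a log2 fold change of -2.32 (SE 0.91) and with 4.08, 3.98 and 3.51 CPM in SCL-treated replicates 1, 2 and 3, against 44.6, 3.77 and 9.47 CPM in high-fat diet replicates 1, 2 and 3. High-fat diet replicate 1 alone stood far above the other libraries of these groups, and the groups overlapped. For SCL-treated over normal diet 2 genes had an unadjusted p under 0.05, where 6.88% of all genes did, and both were likewise picked out by that p. Casp4, an inflammatory caspase gene, stood at 1.13 (SE 0.41) on the log2 scale, and the TNF receptor gene Tnfrsf1b at -1.33 (SE 0.58). In that comparison 7 of the 49 genes lay above and 3 below without overlap, where 15.3% of all genes did not overlap.

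Apaf1, the scaffold that activates caspase-9, averaged 3.55 ± 0.423 CPM in SCL-treated livers, 3.57 ± 1.49 CPM in high-fat diet livers and 5.04 ± 1.16 CPM in normal diet livers (SD, n = 3 each), with a log2 fold change of -0.49 (SE 0.39) for high-fat over normal diet. Fadd, the adaptor between Fas and caspase-8, had a log2 fold change of 0.00 (SE 0.36) there. Cflar, which encodes the caspase-8 regulator FLIP, averaged 8.94 ± 2.86 CPM in SCL-treated livers, 11.9 ± 3.29 CPM in high-fat diet livers and 16.6 ± 7.60 CPM in normal diet livers, with a log2 fold change of -0.90 (SE 0.41, edgeR adjusted p = 0.66) for SCL-treated over normal diet.

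Other regulators had the same lack of calls. Log2 fold changes of high-fat over normal diet were -0.08 (SE 0.27) for Bad, a BH3-only protein, 1.02 (SE 0.88) for Pmaip1, which encodes Noxa, and 0.35 (SE 0.85) for Xiap. They were -0.27 (SE 0.37) for Diablo, which relieves that inhibition, 0.06 (SE 0.39) for Cycs, which encodes cytochrome c and has many processed copies in rodent genomes, -0.69 (SE 0.51) for the TNF receptor gene Tnfrsf1a and 0.09 (SE 0.30) for Ripk1, a kinase of death receptor complexes. Bcl2 itself had at most 6 reads in any library and was under the filter. Bbc3 and Casp6 were not analysed here.

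Markers of other liver cells stood beside these values. In a bulk sample fewer cells of a type and less RNA per cell cannot be told apart. For high-fat over normal diet all 10 hepatocyte markers and all 9 Kupffer cell or macrophage markers had negative log2 fold changes, none of them at 0 in any library, and the Kupffer list summed to 219 to 498 CPM in high-fat diet livers and 465 to 640 CPM in normal diet livers. The lowest hepatocyte and Kupffer sums were those of the 2 libraries over 40% mitochondrial, and without high-fat diet replicate 3 the high-fat diet sums were 331 and 498 CPM for the Kupffer list and 149186 and 151438 CPM for the hepatocyte list. All 8 tested T or NK cell markers were positive, with sums of 14.2 to 36.2 CPM in high-fat diet livers and 13.6 to 23.4 CPM in normal diet livers, and 1 of them, Gzmb, was at 0 in some library. The 3 tested neutrophil markers were positive too, with sums of 1.2, 8.87 and 30.8 CPM in high-fat diet replicates 1, 2 and 3 and 4.75 to 8.06 CPM in normal diet livers. The highest neutrophil sum was thus in high-fat diet replicate 3, which also held the highest Bax, Bak1, Casp9 and Fas. This is 1 library, and 44.1% of its reads were mitochondrial. The 4 tested B or plasma cell markers were positive in all 3 comparisons, with sums of 14.3 to 35.5 CPM in SCL-treated livers, 8.47 to 24.6 CPM in high-fat diet livers and 4.61 to 14.4 CPM in normal diet livers. For SCL-treated over normal diet 7 of the 8 T or NK cell markers were positive, with sums of 25.01 to 34.8 CPM in SCL-treated livers. All 3 tested erythroid markers were positive there as well, with sums of 167 to 499 CPM in SCL-treated livers and 55.8 to 139 CPM in normal diet livers. Stellate cell markers were negative for 4 of 6, with sums of 154 to 240 CPM in SCL-treated livers and 245 to 480 CPM in normal diet livers. In that comparison all 9 Kupffer cell or macrophage markers were negative (median log2 fold change -0.37), as were 9 of the 10 hepatocyte markers (-0.46). For high-fat over normal diet 4 of 6 stellate cell markers were negative as well. No marker was called by edgeR, and their part in the levels of the apoptosis genes was not tested.

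The genes most alike in pattern were looked up for each of the 8 among 11393 named genes, by Pearson's r of log2 CPM over the 9 libraries, which share the groups and the scaling. They were Pdrg1 for Bax (r = 0.98), Rassf4 for Bak1 (r = 0.96), Taco1 for Bid (r = 0.95), Tprn for Bcl2l1 (r = 0.90) and Prdm10 for Bcl2l11 (r = 0.97). They were Ppfibp2 for Casp8 (r = 0.95), Mocs3 for Casp9 (r = 0.96) and Cops4 for Fas (r = 0.94). Each is the best of many genes over few libraries and is given as a description. Among the 8 genes the highest r was 0.78, between Bak1 and Casp9, and the lowest was -0.62, between Bid and Bcl2l11.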

How the data were processed

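Trizol was used to extract liver RNA and a NEBNext Ultra kit to build the libraries, per the labels' protocols. Per the file headers, the authors deposited raw read counts, a normalized signal (counts over a size factor, not used), FPKM, log2 fold changes and p-values. DESeq2, without a version, and mm9, a mouse build, are named in the submitters' processing notes. The aligner, the counter and its use of strand are not given in the sources used. Overlaps and promoters are from RefSeq GRCr8, and no coordinates of the counts were used.

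One edgeR 4.0.16 quasi-likelihood fit (R 4.3.3) took all 9 libraries by group, with 6 residual degrees of freedom, filterByExpr at a minimum count of 10, TMM scaling and Benjamini-Hochberg adjustment over 12041 genes, with calls at an adjusted p under 0.05. The SE is the log2 fold change over the root of F, and intervals are 95%. Alternatives were DESeq2 1.42.0, limma 3.58.1 (voom), other scalings, no count filter, 6 libraries, a replicate block, the mitochondrial share as covariate, and libraries left out. Counts of groups without overlap under other settings were added after seeing the data. Python 3.11.15, pandas 2.3.3 and matplotlib 3.10.9 made tables and plots. Depth was 12413774 to 15521648 reads per library, so genes with few reads carry more counting error.

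No measured value enters the rule for the members, but members and lists alike were chosen with earlier results of these data known. Genes were named by their role in the pathway or as the most alike in pattern, and exceptions are stated.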

Additional observations from a re-analysis of the deposited data

How the results depend on the processing

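Over 19 other settings the 8 genes gave 456 refitted log2 fold changes, of which 431 kept their direction and 25 reversed it, and none passed the threshold in any setting, the lowest adjusted p being 0.0962 (Casp8, limma-voom, high-fat over normal diet). Some of these fits leave out a library of the group not compared, where the value can move little. Bax for high-fat over normal diet, for example, was 0.58 without SCL-treated replicate 1, against 0.60 with all libraries. For high-fat over normal diet the number of genes called was 50 with DESeq2, 26 with limma-voom, 2 with no filter, 0 with library totals alone, 0 with only 6 libraries and 0 without both libraries over 40% mitochondrial, and 1 to 4 with 1 library left out. For SCL-treated over high-fat diet DESeq2 called 1. For SCL-treated over normal diet it was 40 with DESeq2, 152 with limma-voom, 0 with library totals alone, 0 without both libraries and 0 to 1 with 1 left out. Of the 8 genes, those without overlap numbered 2 with library totals alone for high-fat over normal diet, beside 9.72% of all genes. Without both libraries they numbered 1 for SCL-treated over high-fat diet (28.3% of all genes) and 5 for SCL-treated over normal diet (30.9%). With 1 left out they numbered 0 to 2 in the former, beside 8.31% to 21.3% of all genes. In the latter they numbered 2 to 5, beside 18.2% to 41.7%. The causes were not tested.

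Reversals with 1 library left out are given as ranges of the log2 fold change. They ran from -0.23 to 0.26 for Bcl2l1 and -0.35 to 0.068 for Fas (high-fat over normal diet). For SCL-treated over high-fat diet they ran from -0.41 to 0.30 for Bax, -0.39 to 0.26 for Bak1, -0.32 to 0.078 for Bid and -0.031 to 0.41 for Bcl2l1. For SCL-treated over normal diet they ran from -0.026 to 0.38 for Bid and -0.10 to 0.53 for Bcl2l11. Without both libraries, SCL-treated over high-fat diet gave 0.46 for Bax, 0.12 for Bak1, 0.12 for Bid and -0.00092 for Bcl2l1, and SCL-treated over normal diet gave -0.11 for Bcl2l11. Library totals alone put the median of all genes at -0.19 (SCL-treated over high-fat diet) and -0.21 (SCL-treated over normal diet), against -0.03 and 0.03 with TMM. They gave -0.086 for Bcl2l1 in the first, and -0.065 for Bid, -0.031 for Bcl2l1 and -0.074 for Fas in the second. Limma-voom gave 0.17 for Bid in the first and -0.083 for Bcl2l11 in the second, and the mitochondrial covariate 0.083 for Bax in the first. Same-numbered deviations from the group means correlated over 0.1 in 4 of 9 pairs and best with their own number in 7 of 18 cases. With 3 libraries a group this cannot decide whether the replicate numbers pair the libraries. With the replicate block 1, 0 and 1 genes and 0 of the 8 were called in the 3 comparisons, and Bax reversed to 0.10 for SCL-treated over high-fat diet.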
